A study of Hordeum vulgare with 12 samples.

Results

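MicroRNAs (miRNAs) of barley roots (Hordeum vulgare, line Rolap) were compared between plants short of phosphate and plants supplied with it. The members were chosen by annotation alone: every distinct sequence of 18 to 25 nt in the root libraries that matched a miRBase entry of any species without a mismatch. There were 3812 such sequences, of 6279 in roots and shoots together and beside 4430 in shoots, and they carried 162 family numbers. All plants grew in the same low-phosphate soil and sand mixture holding 8 mg P per kg of soil, and were harvested on day 23. The low-Pi group received nothing more (libraries R4, R5 and R6), and the control group received a further 60 mg P per kg as KH2PO4 (libraries R16, R17 and R18). Each library came from 1 pot of 3 plants, and the error in every test within roots is that among pots. No label gives a root cell type, and a lower level in whole roots can come from fewer cells that make a miRNA or from less miRNA per cell, which cannot be told apart here.

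A plant miRNA is cut out of a hairpin precursor by a Dicer-like enzyme as a duplex of strands from both arms. One strand is loaded into an ARGONAUTE protein and guides the cleavage of mRNAs that pair with it almost perfectly, while the other strand is usually lost. The response to phosphate shortage is a textbook case: miR399 removes the mRNA of PHO2, an enzyme that marks phosphate transporters for degradation, and miR399 made in shoots travels to roots in the phloem. miR827 acts on mRNAs of SPX-domain proteins, which in rice are transporters of the SPX-MFS group and in Arabidopsis the ubiquitin ligase NLA.

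The sequences below are those on which the results turn. They were copied from the deposited table, with T for U, and their bases 2 to 8 (the seed) are in capitals. The phosphate miRNAs came as several forms. For miR827 these were a 21-nt form of the 3′ arm, a 20-nt form that lacks its last base, and the strand from the 5′ arm. All were matched to the Brachypodium distachyon entry.
miR827, 3′ arm, 21 nt: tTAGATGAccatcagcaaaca
miR827, 3′ arm, 20 nt: tTAGATGAccatcagcaaac
miR827, 5′ arm, 22 nt: tTTTGTTGgttgtcatctaacc
Of miR399, a pair of guide forms shared a seed. The other forms were matched as a length variant of the 5′ arm and as a piece of a precursor.
miR399b/a, Aegilops tauschii entry: tGCCAAAGgagaattgccctg
miR399a, Phaseolus vulgaris entry: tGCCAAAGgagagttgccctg
miR399b, 5′ arm, Aegilops tauschii entry: gGGCGCTTctcctttggcacg
miR399a precursor, Brachypodium distachyon entry: gTGCAGTTctcctctggcatg
The miR319 forms are shown because most tested sequences of this family fell. They carry a seed that depends on whether the sequence starts with C or with the next base.
miR319b, 22 nt, Oryza sativa entry: cTTGGACTgaagggtgctccct
miR319b, 21 nt, Brachypodium distachyon entry: tTGGACTGaagggtgctccct
miR319a/b, 20 nt, Physcomitrella patens entry: cTTGGACTgaagggagctcc
The most abundant forms of the families that fell, and the strand of miR156 that rose, were as follows.
miR166, 21 nt, Glycine max entry: tTCGGACCaggcttcattccc
miR168, 21 nt, Aegilops tauschii entry: tCGCTTGGtgcagatcgggac
miR5048a/b, 22 nt, Hordeum vulgare entry: tATATTTGcaggttttaggtct
miR5051, 21 nt, Hordeum vulgare entry: tTTGGCACcttgaaactggga
miR156, 5′ arm, 21 nt, Glycine max entry: tTGACAGAagagagtgagcac
miR156c, 3′ arm, 22 nt, Aegilops tauschii entry: gCTCACTGctctatctgtcacc
A last set matched precursors only, or names that resemble pieces of structural RNA.
miR1511 precursor, 18 nt, Prunus persica entry: aACCTGGCtctgatacca
miR5072 precursor, 18 nt, Oryza sativa entry: tCCCCAGCggagtcgcca
miR5083 precursor, 25 nt, Oryza sativa entry: aAACCAATggatccttctgagcctg
miR9779 precursor, 21 nt, Triticum aestivum entry: aCCTATGAtgagttgcgaact
miR6300, 18 nt, Glycine max entry: gTCGTTGTagtatagtgg
miR6300 precursor, 24 nt, Glycine max entry: cGTTGTAGtatagtggtaagtatt
A name is that of the matched miRBase entry and its arm label is the deposited one, and neither identifies a barley locus. The arm labels are in doubt for entries with a single mature product, since the main miR159b form is labelled as the 5′ arm although miR159 is known from the 3′ arm. Strands are therefore named as labelled.

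The low-Pi libraries held 14999744 to 17614581 reads and the control libraries 7470998 to 11434616. Reads matching miRBase made up 1.22, 0.940 and 1.21% under low Pi and 1.91, 1.61 and 1.70% in control, so that low-Pi roots had the lower share in every library. The deposited root sequences without a miRBase match, which the authors had selected on these libraries for a difference, took 27.9 to 31.8% of the reads under low Pi and 8.43 to 9.93% in control, and their part in the results was not tested. Levels below are reads scaled to 1000000 reads kept in a library (RPM), in the order R4, R5, R6 for low Pi and R16, R17, R18 for control. After removal of low counts, 285 sequences and 53 families were tested, which held 98.5% and 99.9% of the miRBase reads. At an adjusted p under 0.05, 4 families rose (7.55%) and 16 fell (30.2%), and 15 sequences rose (5.26%) and 88 fell (30.9%). All low-Pi libraries lay above all control libraries in 7 families (13.2%) and 19 sequences (6.67%), and below them in 13 families (24.5%) and 116 sequences (40.7%). The median log2 difference over families was -0.42 and that over sequences -0.66. TMM factors, which assume that most features do not differ, moved the family median to 0.25 and the split to 13 families higher (24.5%) and 3 lower (5.66%), and the sequence split to 27 higher (9.47%) and 19 lower (6.67%). Of the other scales, TMM factors taken from the families gave 4 families higher and 4 lower, the miRBase sum 11 and 4, totals less the deposited unmatched reads 10 and 5, and no scaling 18 and 2. No scaling leaves sequencing depth in the difference, and every low-Pi library was deeper than every control library. A direction near these medians therefore depends on the scale. The same way on all of 5 scales compared, 6 families (11.3%) and 20 sequences (7.02%) passed, the sequences being 15 higher and 5 lower. The 5 were library totals, TMM factors from the tested sequences, the sum of the miRBase table, totals less the deposited unmatched reads, and no scaling. Library totals gave the lowest median of the 5. All 4 families and 15 sequences called higher there passed on all 5, which adds no support to those calls. For decreases no scaling was the strictest of the 5, with 2 families and 5 sequences lower. TMM factors taken from the families and DESeq2 were not among the 5. The 6 families were miR399, miR827, miR1511 and miR5072 above control, and miR319 and miR5051 below it. The study had reported root sequences of miR399, miR827, miR1511, miR5072 and miR319 from these same libraries, so those calls are not independent evidence. The family call of miR5072, whose tested sequences were all matched as precursors, was lost without R4, R6 or R16. Without R18, 9 families fell, and without R5 or R6 10 did, while 57 sequences fell without R4 and 58 without R5.

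Both tested families of phosphate signalling rose (beside 7.55% of all tested families that rose), with a median log2 difference of 1.75 beside -0.42 over all families. The miR827 family was at 82.3, 57.8 and 76.7 RPM under low Pi and 21.2, 27.9 and 18.6 RPM in control. Every low-Pi library lay above every control library (72.3 ± 12.8 RPM against 22.6 ± 4.82 RPM, mean ± SD, n = 3, log2 difference 1.68 ± 0.31 (SE), adjusted p = 3.67e-06, and 2.32 with TMM factors, adjusted p = 9.46e-10). Its 21-nt guide form was at 57.0, 39.3 and 51.3 RPM under low Pi and 7.78, 15.8 and 7.90 RPM in control (log2 difference 2.23 ± 0.34 (SE), adjusted p = 8.15e-04). The 20-nt form showed the largest rise of all tested sequences, from 0.262, 1.48 and 0.803 RPM in control to 8.80, 6.36 and 8.36 RPM under low Pi (log2 difference 3.26 ± 0.47 (SE), adjusted p = 5.37e-04). The strand from the 5′ arm, by contrast, was at 12, 8.29 and 14.3 RPM under low Pi and 10.8, 8.78 and 7.63 RPM in control, and these ranges overlapped (log2 difference 0.34 ± 0.32 (SE), adjusted p = 0.422).

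The miR399 family was at 14.7, 11 and 14.9 RPM under low Pi and 2.54, 4.08 and 5.09 RPM in control. All low-Pi libraries were higher (13.5 ± 2.22 RPM against 3.90 ± 1.28 RPM, log2 difference 1.81 ± 0.37 (SE), adjusted p = 1.67e-05, and 2.47 with TMM factors, adjusted p = 3.96e-08). All 4 tested miR399 sequences rose (beside 5.26% of all tested sequences that rose). They did so on all 5 scales, as did every sequence called higher on library totals. The form shared by miR399b and miR399a was at 5.73, 2.61 and 4.71 RPM under low Pi and 0.525, 1.48 and 0.937 RPM in control (log2 difference 2.18 ± 0.47 (SE), adjusted p = 0.00326). The form matched to Phaseolus vulgaris, with the same seed, was at 3.07, 2.95 and 4.05 RPM under low Pi and 1.14, 1.48 and 2.28 RPM in control. Its difference was smaller (log2 difference 1.06 ± 0.39 (SE), adjusted p = 0.0467) and was not called without R4, R5, R6, R16 or R17 (range 0.84 to 1.36), where the range is that of the log2 difference over the 6 fits that left out 1 library. The form from the 5′ arm of miR399b was at 1.67, 1.70 and 1.26 RPM under low Pi and 0.350, 0.124 and 0.268 RPM in control (log2 difference 2.54 ± 0.53 (SE), adjusted p = 0.00271), and the precursor piece of miR399a at 1.73, 1.42 and 1.99 RPM under low Pi and 0.175, 0.124 and 0.937 RPM in control (log2 difference 2.14 ± 0.59 (SE), adjusted p = 0.0110). The last call was lost without R16 or R17 (range 1.70 to 3.41). These sequences rested on few control reads, and their lowest control values stand for 1 read. No root sequence carried the names miR2111 or miR778, the other families of the list, and 0 reads allow a level of up to 0.170 to 0.402 RPM, or 3 reads, in a library.

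**Figure D1:**
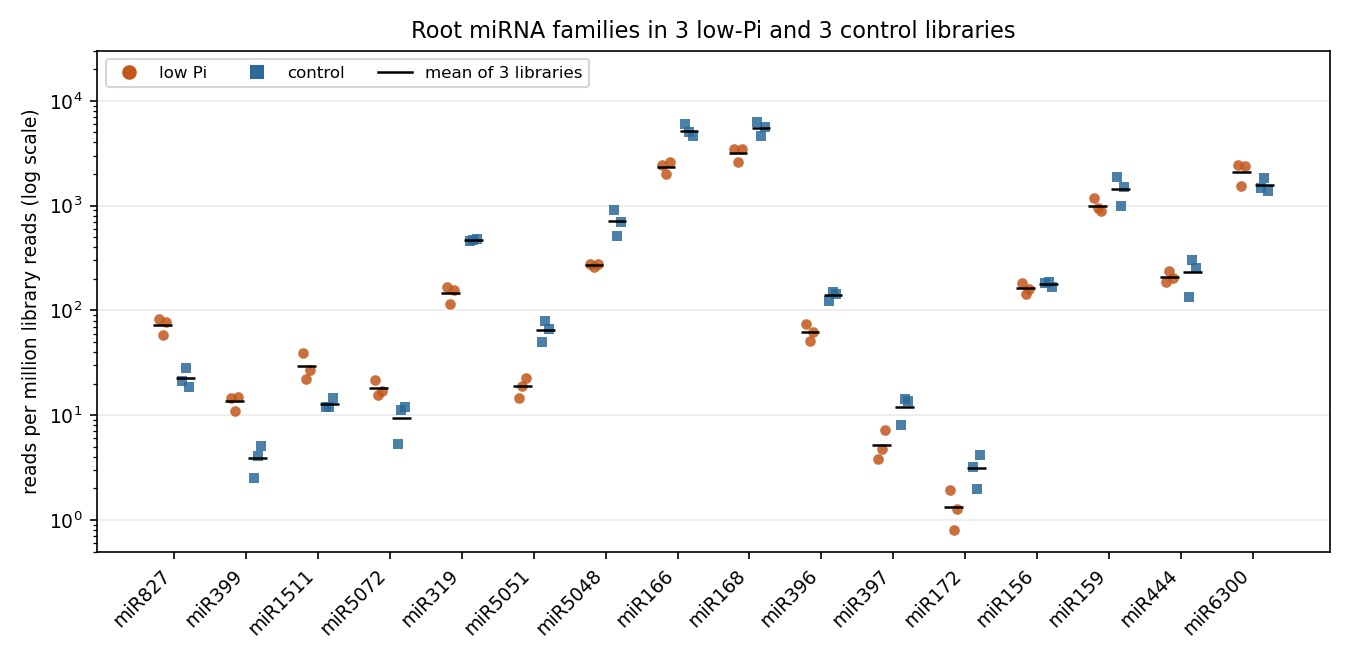
Levels of 16 root miRNA families in RPM on a log axis, with 1 point per library (circles, low Pi; squares, control; 3 libraries each) and a black line at each mean. miR827, miR399, miR1511 and miR5072 stand above control in all low-Pi libraries and miR319, miR5051, miR5048, miR166, miR168, miR396, miR397 and miR172 below it, while the libraries of miR156, miR159, miR444 and miR6300 overlap.

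miR319 and miR159 are relatives of similar sequence. In Arabidopsis miR319 acts mainly on mRNAs of TCP transcription factors, which limit cell division in leaves, and miR159 mainly on those of GAMYB transcription factors, and their targets can overlap. The miR319 family fell, from 456, 471 and 476 RPM in control to 166, 116 and 157 RPM under low Pi (146 ± 26.8 RPM against 468 ± 10.6 RPM, log2 difference -1.68 ± 0.27 (SE), adjusted p = 1.81e-07, and -1.04 with TMM factors, adjusted p = 4.37e-04). Of its 16 tested sequences, 12 fell and none rose (75.0%, beside 30.9% of all tested sequences that fell), and 6 fell with TMM factors (beside 6.67% of all). The 22-nt form that begins with C was at 46.0, 38.9 and 49.0 RPM under low Pi and 169.6, 206 and 186 RPM in control (log2 difference -2.07 ± 0.26 (SE), adjusted p = 2.19e-04). The 21-nt form was at 54.7, 34.7 and 52.9 RPM under low Pi and 154, 132 and 168 RPM in control (log2 difference -1.67 ± 0.28 (SE), adjusted p = 8.45e-04). Both stood below control in every low-Pi library. A 22-nt form with 1 more base at its 3′ end (tTGGACTGaagggtgctccctt) was at 4.13, 1.99 and 3.58 RPM under low Pi and 13.7, 12.2 and 10.4 RPM in control (log2 difference -1.91 ± 0.34 (SE), adjusted p = 0.00142), and the 21-nt form that begins with C (cTTGGACTgaagggtgctccc) at 1.60, 1.14 and 1.26 RPM under low Pi and 4.46, 5.31 and 4.02 RPM in control (log2 difference -1.78 ± 0.36 (SE), adjusted p = 0.00239). The groups did not overlap for these forms either. All 5 tested sequences with the seed TTGGACT fell, between -1.13 and -2.07 on the log2 scale, as did 4 of 5 with the seed TGGACTG.

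The miR319 sequences came in versions that differ by T14A, counted from 1 at the 5′ end of the 21-nt form above, and this split was made after their values were seen. Sequences holding T there summed to 114, 81.2 and 115 RPM under low Pi and 363, 373 and 389 RPM in control. Sequences holding A summed to 45.3, 31.5 and 37.9 and 83.0, 85 and 73.6 RPM. Of the former, 6 of 7 tested sequences fell, with a median log2 difference of -1.78, and of the latter 4 of 7, with a median of -0.94. Over all tested sequences 30.9% fell. The share of the T version in both together was 71.6, 72.1 and 75.2% under low Pi and 81.4, 81.4 and 84.1% in control, and the groups did not overlap (two-sided exact permutation p = 0.1, the smallest that 3 against 3 libraries can give). No single miR319 sequence passed the test against the rest of its family described below.

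The miR159 family was at 1176, 941 and 884 RPM under low Pi and 1866, 982 and 1499.8 RPM in control, with overlapping groups (log2 difference -0.54 ± 0.24 (SE), adjusted p = 0.0663). Its most abundant form, matched to the barley miR159b entry, was at 587, 454 and 474 RPM under low Pi and 983, 447 and 828 RPM in control (log2 difference -0.57 ± 0.29 (SE), adjusted p = 0.119), and R16 was the highest library. By contrast, all 4 tested sequences with the seed TTGCATG, pieces of the barley miR159a precursor, fell, by 1.63 to 2.08 on the log2 scale (beside 30.9% of all tested sequences that fell). The most abundant of them, with 21 nt, was at 21.7, 18.7 and 18 RPM under low Pi and 59.0, 62.2 and 59.6 RPM in control (log2 difference -1.63 ± 0.27 (SE), adjusted p = 8.45e-04, and -0.98 with TMM factors, adjusted p = 0.0176), and it was picked out after its values were seen. A 19-nt form that lacks the first bases of miR159b was at 11.6, 10.1 and 8.96 RPM under low Pi and 63.8, 12.2 and 19.8 RPM in control (log2 difference -1.65 ± 0.47 (SE), adjusted p = 0.0131), and its call was lost without R4, R5 or R16 (range -2.04 to -0.65).

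The largest families by reads, miR168 and miR166, both fell on library totals. miR168 passed on that scale alone, whereas miR166 also passed on the sum of the miRBase table (-0.51, adjusted p = 3.27e-04), on totals less the unmatched reads (-0.77, adjusted p = 0.00461) and with DESeq2 (-0.87, adjusted p = 0.0135), and not with TMM factors or no scaling. miR166 and its near relative miR165 act on mRNAs of HD-ZIP III transcription factors, which pattern the root's vascular tissue. The miR166 family went from 6025, 4984 and 4592 RPM in control to 2453, 1981 and 2612 RPM under low Pi (log2 difference -1.15 ± 0.23 (SE), adjusted p = 1.38e-05, and -0.52 with TMM factors, adjusted p = 0.103). A single 21-nt sequence, shown above, made up 92.2% of the family under low Pi and 93.0% in control, and was at 2262, 1817 and 2422 RPM under low Pi and 5705, 4589.6 and 4234 RPM in control (log2 difference -1.16 ± 0.24 (SE), adjusted p = 0.00247). The strand of the other arm, matched to miR166d of Aegilops tauschii (gGAATGTTgtctggctcgggg), was at 4.4, 3.63 and 4.11 RPM under low Pi and 8.66, 17.9 and 18.2 RPM in control. It fell on all 5 scales (log2 difference -1.88 ± 0.35 (SE), adjusted p = 0.00155). A 20-nt form of the main sequence that lacks its last base (tTCGGACCaggcttcattcc) was at 3.87, 2.16 and 4.31 RPM under low Pi and 11.2, 8.28 and 11.6 RPM in control (log2 difference -1.59 ± 0.34 (SE), adjusted p = 0.00326). Of 34 tested miR166 sequences 16 fell and none rose (47.1%, beside 30.9% of all tested sequences that fell), and 3 fell with TMM factors. The miR165 family was at 74.9, 85.4 and 118 RPM under low Pi and 121, 163 and 162 RPM in control (log2 difference -0.69 ± 0.29 (SE), adjusted p = 0.0452). Its call was lost without R4, R5, R6, R17 or R18 (range -0.89 to -0.55), and its value was -0.02 with TMM factors, adjusted p = 0.938 and turned to 0.17 with no scaling. Its most abundant sequence, shared by miR165a and miR165b of Arabidopsis thaliana (tCGGACCAggcttcatccccc), did not pass on its own (log2 difference -0.65 ± 0.27 (SE), adjusted p = 0.0707).

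miR168 acts on the mRNA of ARGONAUTE1, the protein into which most miRNAs are loaded, and so feeds back on the miRNA pathway. It was the most abundant family, at 3451, 2632 and 3439 RPM under low Pi and 6273, 4631 and 5669.7 RPM in control (log2 difference -0.80 ± 0.23 (SE), adjusted p = 0.00306, and -0.17 with TMM factors, adjusted p = 0.639). The low-Pi libraries were all below the control libraries. Its main 21-nt form was at 2879, 2192 and 2873 RPM under low Pi and 5407, 3707 and 4476 RPM in control (log2 difference -0.77 ± 0.24 (SE), adjusted p = 0.0213), a call that was lost without R4, R5, R16 or R18 (range -0.90 to -0.63). Of 25 tested miR168 sequences 11 fell (44.0%, beside 30.9% of all tested sequences), among them 4 of 8 with its seed CGCTTGG, and 2 fell with TMM factors. A 19-nt piece of the other arm (cGCCTTGCaccaagtgaat) was at 1.67, 0.852 and 1.19 RPM under low Pi and 3.24, 3.71 and 6.69 RPM in control (log2 difference -1.86 ± 0.41 (SE), adjusted p = 0.00407). miR162, which acts on the mRNA of DICER-LIKE1, had 1 root read under low Pi and 0 in control.

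miR156 and miR172 control ageing in shoots, miR156 through SPL and miR172 through AP2-like transcription factors. The miR156 family was at 182, 143 and 161 RPM under low Pi and 182, 186 and 168 RPM in control (log2 difference -0.14 ± 0.28 (SE), adjusted p = 0.640), with overlapping groups, and passed only with no scaling, which leaves the greater depth of the low-Pi libraries in, at 0.67. Its main form from the 5′ arm was at 91.9, 74.7 and 84.0 RPM under low Pi and 99.6, 91.7 and 83.4 RPM in control (log2 difference -0.13 ± 0.25 (SE), adjusted p = 0.703). The strand from the 3′ arm of miR156c, however, rose, and did so on all 5 scales like every sequence called higher on library totals. It was at 6.20, 6.93 and 7.70 RPM under low Pi and 1.84, 3.83 and 3.48 RPM in control (log2 difference 1.21 ± 0.35 (SE), adjusted p = 0.0135), and the call was lost without R6 (range 0.92 to 1.42). The miR172 family fell from 3.24, 1.98 and 4.15 to 1.93, 0.795 and 1.26 RPM (log2 difference -1.24 ± 0.41 (SE), adjusted p = 0.0142). This call was lost without R5, R6 or R18 (range -1.60 to -0.96), and the value was -0.61 with TMM factors, adjusted p = 0.227.

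Of the 4 families of auxin signalling, only miR393 fell on library totals (beside 30.2% of all tested families that fell). The other 3 did not pass, and none of the 4 passed with TMM factors. Their median log2 difference was -0.36, beside -0.42 over all families. miR393 acts on mRNAs of the TIR1/AFB auxin receptors and was at 0.733, 0.511 and 0.862 RPM under low Pi and 1.40, 1.85 and 2.54 RPM in control (log2 difference -1.43 ± 0.46 (SE), adjusted p = 0.0105). Its call was lost without R5 or R18 (range -1.64 to -1.20). miR167, which acts on the mRNAs of auxin response factors that promote root branching, was the abundant member at 421, 404 and 487 RPM under low Pi and 363, 643 and 600.3 RPM in control (log2 difference -0.29 ± 0.26 (SE), adjusted p = 0.358). The groups overlapped, as they did for its main form (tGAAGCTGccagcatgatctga, log2 difference -0.22 ± 0.27 (SE), adjusted p = 0.560). miR160, which acts on another group of auxin response factors, had a log2 difference of -0.42 ± 0.35, adjusted p = 0.329. For miR390, which starts the trans-acting small RNAs against a further group of these factors, it was -0.28 ± 0.36, adjusted p = 0.498. The groups overlapped for both.

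Of the 4 families that act on regulators of growth, meristems and organ boundaries, 3 fell on library totals (75.0%, beside 30.2% of all tested families) and none passed with TMM factors. Their median log2 difference was -0.93, beside -0.42 over all families. miR396, which acts on GROWTH-REGULATING FACTOR mRNAs, was at 73.9, 51.3 and 62.7 RPM under low Pi and 124, 149 and 145 RPM in control (log2 difference -1.15 ± 0.29 (SE), adjusted p = 8.43e-04, and -0.50 with TMM factors, adjusted p = 0.103). It also passed on totals less the unmatched reads (-0.76, adjusted p = 0.0358) and with DESeq2 (-0.82, adjusted p = 0.00477). All its low-Pi libraries lay below control, and 8 of its 11 tested sequences fell (72.7%, beside 30.9% of all tested sequences), none of them with TMM factors. Its most abundant sequence had 18 nt and was matched as a precursor, which is the deposited match type (aCAGGCTTtcttgaactg). It was at 22.9, 13.8 and 20.2 RPM under low Pi and 42.1, 43.9 and 47.2 RPM in control (log2 difference -1.23 ± 0.29 (SE), adjusted p = 0.00645). miR171, which acts on HAIRY MERISTEM mRNAs, was at 50.8, 68.7 and 65.7 RPM under low Pi and 65.9, 151 and 87.8 RPM in control (log2 difference -0.72 ± 0.29 (SE), adjusted p = 0.0452), with overlapping groups. It was not called without R4, R5, R6, R17 or R18 (range -0.95 to -0.31), and its value was 0.17 with no scaling. Its main form (tGAGCCGAaccaatatcactc) did not pass (log2 difference -0.70 ± 0.33 (SE), adjusted p = 0.103). miR394, which acts on the mRNA of the F-box protein LCR, was at 1.80, 0.795 and 0.995 RPM under low Pi and 1.49, 3.21 and 3.35 RPM in control (log2 difference -1.14 ± 0.43 (SE), adjusted p = 0.0268) and was not called without R5, R6, R17 or R18 (range -1.55 to -0.90). miR164, which acts on mRNAs of NAC factors of the CUC group, was at 3.20, 2.67 and 3.98 RPM under low Pi and 2.01, 1.73 and 6.02 RPM in control (log2 difference 0.04 ± 0.39 (SE), adjusted p = 0.912).

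Among families tied to nutrients other than phosphate, miR397 fell. It acts on laccase mRNAs and belongs to the miRNAs that rise when copper is short. It was at 3.8, 4.77 and 7.16 RPM under low Pi and 8.05, 14.2 and 13.7 RPM in control (log2 difference -1.18 ± 0.35 (SE), adjusted p = 0.00527, and -0.51 with TMM factors, adjusted p = 0.227), with no overlap, and it also passed with DESeq2 (-0.82, adjusted p = 0.0361). miR408, which shares that role, was at 1.13, 1.82 and 2.12 RPM under low Pi and 1.14, 2.60 and 2.41 RPM in control (log2 difference -0.23 ± 0.42 (SE), adjusted p = 0.627). miR398 had 3 root reads under low Pi and 2 in control, miR528 had 1 and 2, and neither was tested. miR169, which acts on NF-YA mRNAs, was at 12.6, 11 and 17.4 RPM under low Pi and 9.53, 29.5 and 19.7 RPM in control (log2 difference -0.51 ± 0.33 (SE), adjusted p = 0.202), with R16 lowest in control. miR444, a family of grasses that acts on MADS-box mRNAs linked to nitrate signalling in rice, was at 188, 237 and 204 RPM under low Pi and 134, 305 and 255 RPM in control (log2 difference -0.14 ± 0.27 (SE), adjusted p = 0.640), and passed only with no scaling, which leaves the greater depth of the low-Pi libraries in, at 0.77. Its most abundant sequence, a piece matched to the rice miR444c precursor (cGGCAAGCtagagacagcaac), was at 89.7, 109.6 and 97.5 RPM under low Pi and 63.8, 143 and 121 RPM in control (log2 difference -0.14 ± 0.30 (SE), adjusted p = 0.731), and none of the 17 tested miR444 sequences was called. miR395, the family of sulfate shortage, had 4 root reads under low Pi and 2 in control.

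Of 7 tested families first described in cereals, with roles that are less settled, 6 fell on library totals (85.7%, beside 30.2% of all tested families) and 2 with TMM factors. Their median log2 difference was -1.09, beside -0.42 over all families. miR5051 was at 14.7, 19 and 22.8 RPM under low Pi and 49.8, 79.6 and 66.5 RPM in control (log2 difference -1.79 ± 0.32 (SE), adjusted p = 1.22e-06, and -1.12 with TMM factors, adjusted p = 5.93e-04). The low-Pi libraries lay far below control, and the main 21-nt form followed, at 13, 17.7 and 20.4 RPM under low Pi and 46.4, 74.0 and 60.5 RPM in control (log2 difference -1.82 ± 0.30 (SE), adjusted p = 8.45e-04). A form shifted by 1 base (tTGGCACCttgaaactgggac), and so with another seed, was at 0.467, 0.681 and 1.13 RPM under low Pi and 1.66, 3.46 and 3.08 RPM in control (log2 difference -1.82 ± 0.46 (SE), adjusted p = 0.00868). miR5048 was at 277, 262 and 278 RPM under low Pi and 915, 513 and 702 RPM in control (log2 difference -1.38 ± 0.26 (SE), adjusted p = 3.67e-06, and -0.76 with TMM factors, adjusted p = 0.0131) and passed on 4 of 5 scales, the exception being no scaling. The low-Pi libraries of miR5048 differed little among themselves (272 ± 9.37 RPM), while control ranged from 513 in R17 to 915 in R16. Its main form was at 217, 209 and 226 RPM under low Pi and 747, 405 and 567 RPM in control (log2 difference -1.40 ± 0.27 (SE), adjusted p = 0.00189).

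The other members of that list rested more on single libraries. miR5049 was at 3.87, 3.92 and 2.65 RPM under low Pi and 9.10, 6.30 and 6.69 RPM in control (log2 difference -1.09 ± 0.37 (SE), adjusted p = 0.0144) and was not called without R6 (range -1.19 to -0.90). miR1432 was at 18.3, 8.23 and 14.9 RPM under low Pi and 13.3, 29.0 and 35.1 RPM in control (log2 difference -0.90 ± 0.33 (SE), adjusted p = 0.0233) and was not called without R5, R6, R17 or R18 (range -1.22 to -0.61), and its main form (tTCAGGAGagatgacaccgac) did not pass (log2 difference -0.69 ± 0.36 (SE), adjusted p = 0.133). miR6186 was at 0.333, 1.76 and 1.06 RPM under low Pi and 1.75, 3.58 and 1.61 RPM in control (log2 difference -1.09 ± 0.43 (SE), adjusted p = 0.0374) and was not called without R4, R6 or R17 (range -1.70 to -0.65). miR5168, whose sequences differ from those of miR166 by a few bases, was at 50.1, 52.3 and 78.3 RPM under low Pi and 75.5, 98.5 and 122 RPM in control (log2 difference -0.71 ± 0.29 (SE), adjusted p = 0.0452). It was not called without R4, R5, R6, R17 or R18 (range -0.95 to -0.53), and its value was 0.15 with no scaling. Its main form (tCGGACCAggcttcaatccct) did not pass (log2 difference -0.70 ± 0.29 (SE), adjusted p = 0.0681). miR9662 was at 121, 117 and 106 RPM under low Pi and 159, 190.3 and 187 RPM in control and missed the threshold as a family (log2 difference -0.64 ± 0.28 (SE), adjusted p = 0.0582), although its groups did not overlap. Its main form (tTGAACATcccagagccaccg) passed at -0.69, adjusted p = 0.0435, was not called without R4, R5, R6, R17 or R18 (range -0.76 to -0.63), and stood at 0.16 with no scaling. Of the 22 families on this list 15 were not tested, 5 of them with no root read.

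Of 4 families whose tested sequences were all matched as precursors, 2 rose on library totals (50.0%, beside 7.55% of all tested families) and all 4 with TMM factors (beside 24.5% of all). Their median log2 difference was 0.74, beside -0.42 over all families. With TMM factors taken from the families, miR5083 and miR9779 were not called. These 4 families had been reported from the same libraries by the study, so their calls are not independent evidence. The same holds for miR399, miR827, miR156 and miR319, of which the study had also reported root sequences. miR1511 was at 38.8, 22.1 and 26.7 RPM under low Pi and 12.1, 11.9 and 14.6 RPM in control (log2 difference 1.19 ± 0.33 (SE), adjusted p = 0.00261, and 1.82 with TMM factors, adjusted p = 1.18e-06), nearly all of it the 18-nt sequence shown above. That sequence was at 38.3, 21.6 and 26.2 RPM under low Pi and 11.3, 11.5 and 14.5 RPM in control (log2 difference 1.21 ± 0.31 (SE), adjusted p = 0.00897) and was not called without R4 (range 0.95 to 1.38). miR5072 was at 21.5, 15.6 and 16.9 RPM under low Pi and 5.33, 11.1 and 12 RPM in control (log2 difference 0.94 ± 0.34 (SE), adjusted p = 0.0233) and was not called without R4, R6 or R16 (range 0.64 to 1.14). The 18-nt sequence of miR5072 was at 10.9, 4.83 and 6.57 RPM under low Pi and 1.14, 3.95 and 4.28 RPM in control (log2 difference 1.28 ± 0.45 (SE), adjusted p = 0.0384), a call that was lost without R4, R16 or R17 (range 0.84 to 1.58).

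miR5083 and miR9779 did not pass as families on library totals (miR5083, log2 difference 0.51 ± 0.30 (SE), adjusted p = 0.170; miR9779, log2 difference 0.55 ± 0.31 (SE), adjusted p = 0.147), but single sequences of both rose. The 25-nt miR5083 sequence shown above was at 15.1, 17.6 and 17.7 RPM under low Pi and 9.01, 5.69 and 6.02 RPM in control (log2 difference 1.27 ± 0.31 (SE), adjusted p = 0.00678), and its 24-nt form at 6.73, 6.87 and 6.90 RPM under low Pi and 2.62, 2.22 and 2.54 RPM in control (log2 difference 1.46 ± 0.32 (SE), adjusted p = 0.00345). A sequence that starts 1 base earlier (gAAACCAAtggatccttctgagcct) fell, being at 0.533, 0.852 and 0.531 RPM under low Pi and 1.57, 1.36 and 1.47 RPM in control (log2 difference -1.18 ± 0.43 (SE), adjusted p = 0.0439). That call was lost without any 1 of the 6 libraries (range -1.45 to -1.07). Of miR9779, the 21-nt sequence was at 12.4, 14.2 and 8.76 RPM under low Pi and 4.55, 3.83 and 6.29 RPM in control (log2 difference 1.28 ± 0.33 (SE), adjusted p = 0.00897). The 22-nt form (aCCTATGAtgagttgcgaactg) was at 10.9, 10.7 and 7.16 RPM under low Pi and 2.97, 2.84 and 2.54 RPM in control (log2 difference 1.78 ± 0.33 (SE), adjusted p = 0.00155), and the 18-nt form (aCCTATGAtgagttgcga) at 4.07, 2.50 and 2.92 RPM under low Pi and 1.49, 1.24 and 1.47 RPM in control (log2 difference 1.16 ± 0.39 (SE), adjusted p = 0.0317). The last was not called without R4, R6, R17 or R18 (range 0.94 to 1.31). The 24-nt form with the same start (aCCTATGAtgagttgcgaactgta) was at 5.67, 5.05 and 5.17 RPM under low Pi and 16.4, 4.33 and 9.64 RPM in control (log2 difference -0.94 ± 0.40 (SE), adjusted p = 0.0740).

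Names that resemble pieces of structural RNA, a label given from general knowledge with no search against tRNA or rRNA, held the third largest family. miR6300 was at 2418, 1523 and 2360.4 RPM under low Pi and 1475, 1827 and 1371 RPM in control (log2 difference 0.43 ± 0.24 (SE), adjusted p = 0.138), and its 18-nt sequence at 2265, 1438 and 2218 RPM under low Pi and 1288, 1636 and 1173 RPM in control (log2 difference 0.53 ± 0.25 (SE), adjusted p = 0.107). Neither passed on library totals, and the groups overlapped, but both passed with TMM factors, at 1.07 and 1.17. miR8175 was at 341, 217 and 409 RPM under low Pi and 185, 176 and 319.6 RPM in control (log2 difference 0.51 ± 0.27 (SE), adjusted p = 0.120, and 1.15 with TMM factors, adjusted p = 3.41e-04). Its 18-nt sequence (tCCCCGGCaacggcgcca) was at 225, 151 and 265 RPM under low Pi and 90.2, 107 and 170.1 RPM in control and passed narrowly (log2 difference 0.80 ± 0.30 (SE), adjusted p = 0.0497), although R18 lay above R5. It was not called without R4, R6, R16 or R17 (range 0.62 to 1.11). For miR894 the log2 difference was -0.19 ± 0.27, adjusted p = 0.532, for miR9777 0.55 ± 0.36, adjusted p = 0.202, and for miR5368 -0.71 ± 0.47, adjusted p = 0.212. The main miR894 sequence (tTTCACGTcgggttcacca) was at 76.0, 54.6 and 68.3 RPM under low Pi and 93.1, 69.0 and 64.5 RPM in control (log2 difference -0.19 ± 0.27 (SE), adjusted p = 0.622). In edgeR's test on library totals none of the 5 tested families of this list passed, even at an unadjusted p under 0.05, while 3 rose with TMM factors (miR6300, miR8175 and miR9777) and 2 with DESeq2. With TMM factors taken from the families, miR6300, miR8175 and miR9777 were not called. A further 16 tested families were on no list. None was called by edgeR on library totals or by DESeq2, 2 had an unadjusted p under 0.05, and 4 rose with TMM factors. None of these was called with TMM factors taken from the families.

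**Figure D2:**
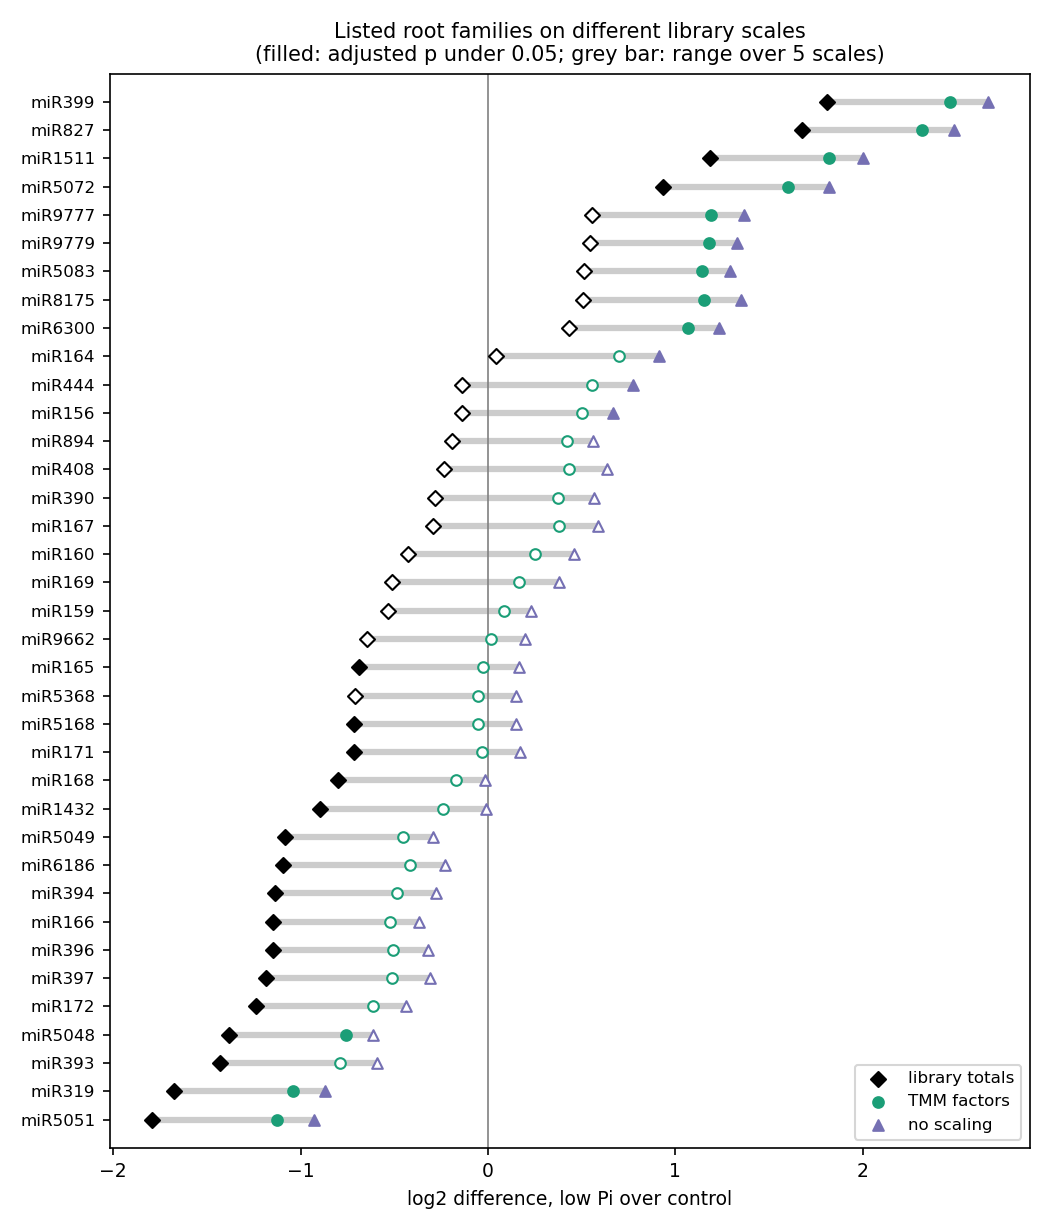
The log2 difference between low-Pi and control roots for 37 listed families on 3 library scales (diamonds, library totals; circles, TMM factors; triangles, no scaling), filled where the adjusted p was under 0.05, with a grey bar over the range of all 5 scales. Each family moves to the right by about the same amount from library totals to no scaling, and miR399, miR827, miR1511 and miR5072 stay filled on the right and miR319 and miR5051 on the left, while families such as miR165, miR171 and miR5168 cross 0.

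Sequences were next described by what they share beyond the family name. Sequences matched to a barley entry, 34 tested of 1318 in the table, included 21 that fell (61.8%, beside 30.9% of all tested sequences) and none that rose, with a median log2 difference of -1.33 (and -0.71 with 5 lower under TMM factors). They belonged to miR159 (17 sequences, 9 lower), miR5048 (11, 8 lower), miR5051 (2, both lower), miR397 (2, 1 lower), miR5049 (1, lower) and miR444 (1, not called), so that the count covers few families. By match class, 22 of 71 mature sequences fell (31.0%) and 4 rose (5.63%). Of 123 length variants 38 fell (30.9%) and 3 rose (2.44%). Of 91 sequences matched as precursors 28 fell (30.8%) and 8 rose (8.79%). The shares that fell were close to the 30.9% of all tested sequences, of which 5.26% rose. Precursor is the deposited match type, and it includes trimmed main forms, such as a miR159b sequence described below. The median log2 difference was -0.69 for mature sequences, -0.71 for length variants and -0.34 for precursor pieces. Outside the lists of structural-RNA-like and precursor-matched names, the precursor median was -0.75, beside -0.73 over all tested sequences outside those lists. There 25 of 61 were lower (41.0%, beside 34.9% of all outside those lists) and 1 was higher.

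Shared seeds cut across names. The seed CGGACCA was carried by 17 tested sequences named miR165, miR166 or miR5168, of which 4 fell and none rose (23.5%, beside 30.9% of all tested sequences that fell), with a median of -0.71 beside -0.66 over all sequences, so that these members were close to the background. The seed TCGGACC, 1 base further upstream and found in the main miR166 sequence, was carried by 6, of which 4 fell, with a median of -1.20. Both miR827 sequences with the seed TAGATGA rose (beside 5.26% of all tested sequences that rose). The seed GAAGCTG of miR167 was carried by 7 sequences, of which 1 fell.

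Each sequence was then tested against the other tested sequences of its own family, a ratio within a library in which a common scale cancels. The test covered 275 sequences of 28 families and called 3 higher (1.09%) and 8 lower (2.91%). Of these 11 calls 10 were kept with TMM factors, but only 2, the longer miR6300 pieces, were kept when each library was left out in turn. The number higher was 0 without R5 or R6 and 1 without R4, R16 or R18. The number lower was 3 without R4 or R6, 4 without R5 or R18, and 13 without R16. The 24-nt piece shown above took 0.0414, 0.0745 and 0.0337% of the family's reads under low Pi and 0.249, 0.257 and 0.342% in control (log2 difference against the family -2.57, adjusted p = 1.73e-05). The 25-nt piece, which begins 1 base earlier (tCGTTGTAgtatagtggtaagtatt), took 0.0414, 0.138 and 0.0450% of the family's reads under low Pi and 0.279, 0.271 and 0.634% in control (log2 difference against the family -2.49, adjusted p = 1.55e-05). Both were also lower in RPM. The 24-nt piece went from 3.67, 4.7 and 4.68 RPM in control to 1.0, 1.14 and 0.796 RPM under low Pi (log2 difference -2.13 ± 0.37 (SE), adjusted p = 0.00129).

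Within miR827 the strand labelled as the 5′ arm, in an entry for which both arms were matched, took a smaller share under low Pi and the 20-nt guide form a larger one. The strand from the 5′ arm took 14.6, 14.3 and 18.7% of the family's reads under low Pi and 50.8, 31.4 and 41.0% in control (log2 difference against the family -1.41, adjusted p = 0.0259). The 20-nt guide form took 10.7, 11 and 10.9% of the family's reads under low Pi and 1.24, 5.31 and 4.32% in control (log2 difference against the family 1.51, adjusted p = 0.0481). The groups did not overlap in either case. The call of the former was lost without R4, R5, R6 or R18 (range -1.62 to -1.20) and that of the latter without R4, R5, R6, R16 or R18 (range 1.07 to 2.03). The 21-nt guide form, at 68.1% of the family under low Pi and 45.3% in control on average, did not pass (log2 difference against the family 0.48, adjusted p = 0.642).

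The strand from the 3′ arm of miR156c took 3.40, 4.85 and 4.77% of the family's reads under low Pi and 1.01, 2.06 and 2.07% in control (log2 difference against the family 1.34, adjusted p = 0.0303), and its call was lost without R4, R5, R6, R16 or R18 (range 1.04 to 1.53). The 24-nt miR9779 sequence took 10.9, 8.79 and 12.7% of the family's reads under low Pi and 36.7, 19 and 27.3% in control (log2 difference against the family -1.52, adjusted p = 0.0112), beside the rise of its shorter forms. That call was lost without R4, R5, R6 or R16 (range -1.63 to -1.18). The miR5083 sequence that starts 1 base earlier took 0.850, 1.34 and 0.872% of the family's reads under low Pi and 2.88, 4.31 and 3.28% in control (log2 difference against the family -1.71, adjusted p = 0.0259), a call lost without R4, R5, R6, R17 or R18 (range -1.95 to -1.56). A 23-nt miR166 sequence (tCTCGGACcaggcttcattcccc) took 0.0435, 0.0802 and 0.0864% of the family's reads under low Pi and 0.0131, 0.0372 and 0.0262% in control (log2 difference against the family 1.53, adjusted p = 0.0333), and was not called without R5, R6, R16 or R18 (range 1.12 to 1.93). In RPM this sequence overlapped between groups (log2 difference 0.38 ± 0.46 (SE), adjusted p = 0.550).

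The remaining 3 calls were lower. An 18-nt sequence matched as a miR159b precursor (gGATTGAAgggagctctg) equals the main miR159b form without its first 3 bases. It was at 8.00, 6.59 and 6.43 RPM under low Pi and 141, 8.16 and 13.5 RPM in control (log2 difference against the family -2.43, adjusted p = 8.09e-05), and 1 control library, R16, carried most of its control reads. Without R16 the call was lost, and the values over the fits that left out 1 library lay between -2.91 and -0.32. The 22-nt piece of the miR159a precursor (tTTGCATGatcgaggagccgct) was at 2.87, 1.93 and 2.26 RPM under low Pi and 9.18, 8.28 and 10.3 RPM in control (log2 difference against the family -1.45, adjusted p = 0.0481), a call lost without R4, R5, R6, R17 or R18 (range -1.68 to -1.30). Its decrease in RPM passed on all 5 scales (log2 difference -1.98 ± 0.32 (SE), adjusted p = 8.45e-04). A 19-nt miR894 sequence (gTTTCACGtcgggttcacc) was at 1.53, 1.25 and 1.46 RPM under low Pi and 7.70, 1.98 and 3.48 RPM in control (log2 difference against the family -1.47, adjusted p = 0.0259), and was not called without R4, R5, R6, R16 or R18 (range -1.76 to -0.95).

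**Figure D3:**
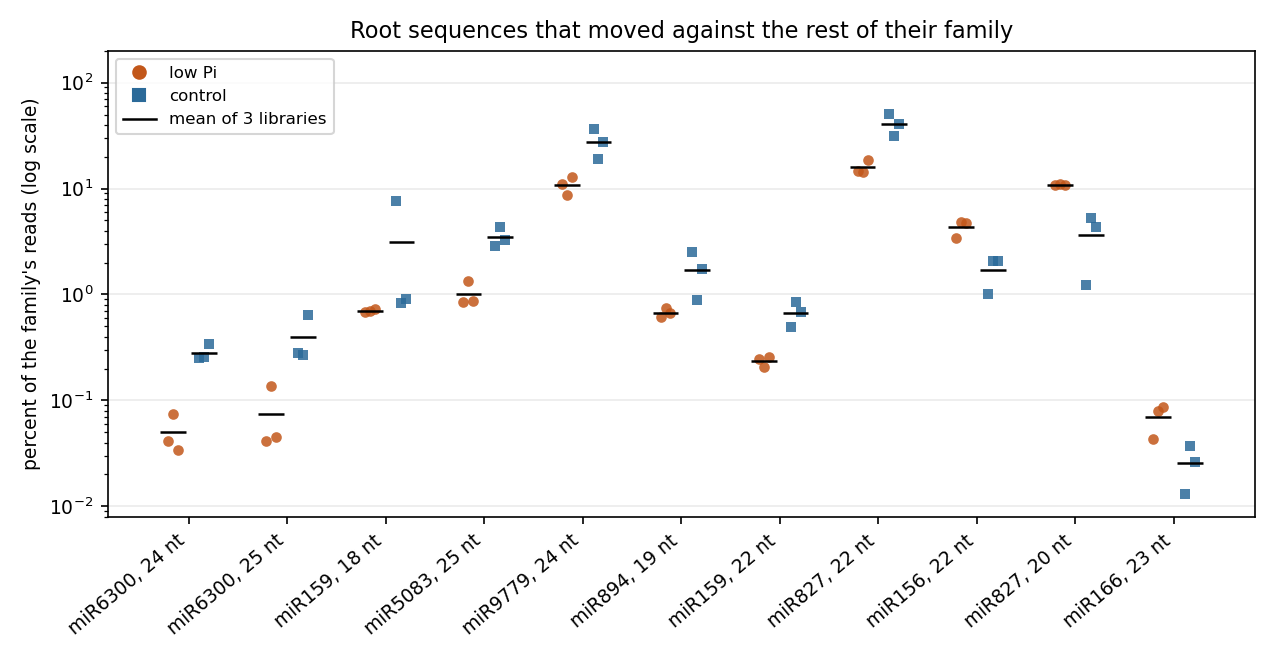
Share of its family's reads taken by each of the 11 root sequences called in the test against the rest of the family, on a log axis in percent (circles, low Pi; squares, control; 1 point per library, 3 libraries each; black line, mean). The low-Pi points lie below control for the 8 sequences on the left and above it for the 3 on the right, and the 18-nt miR159 piece has 1 control point, R16, far above the others.

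The make-up of the miRBase reads was compared by library, with two-sided exact permutation tests whose smallest p for 3 against 3 libraries is 0.1. Sequences of 21 nt, the usual length of plant miRNAs, made up 58.1, 60.2 and 58.8% under low Pi and 72.8, 67.4 and 70.1% in control (59.0 ± 1.09% against 70.1 ± 2.71%, exact p = 0.1). Sequences of 18 nt made up 26.1, 22.1 and 25.1% under low Pi and 11.7, 14.8 and 11.9% in control (24.5 ± 2.08% against 12.8 ± 1.75%, exact p = 0.1). Without the miR6300 family the gap narrowed, to 72.5 ± 0.627% against 77.0 ± 1.61% for 21 nt and 8.65 ± 0.637% against 5.39 ± 0.0896% for 18 nt. Without all structural-RNA-like and precursor-matched families, the 21-nt share was 78.3, 76.8 and 79.0% under low Pi and 81.5, 78.5 and 79.1% in control (exact p = 0.2) and the 18-nt share 4.96, 4.51 and 3.82% under low Pi and 3.87, 3.52 and 3.53% in control (exact p = 0.2), and both overlapped between groups. Mature sequences made up 59.3, 57.2 and 58.9% under low Pi and 49.5, 50.1 and 52.9% in control, and length variants 33.5, 35 and 34.9% under low Pi and 44.8, 43.9 and 41.1% in control (exact p = 0.1 for both). Low-Pi libraries were higher in the former and lower in the latter without overlap. Without miR6300 the share of mature sequences was 50.7, 50.0 and 50.4% under low Pi and 46.4, 45.1 and 50.1% in control, with overlapping groups (exact p = 0.2), and over distinct sequences in place of reads the direction turned, to 8.93 ± 0.328% against 9.70 ± 0.194%. Without the structural-RNA-like and precursor-matched families the shares were 54.5 ± 0.642% against 48.9 ± 2.85% for mature sequences and 39.0 ± 0.667% against 45.6 ± 2.80% for length variants. The groups did not overlap in either class (exact p = 0.1 for both). Nor did they for length variants without miR6300, at 41.1 ± 0.841% against 46.5 ± 2.52% (exact p = 0.1). Precursor pieces made up 7.20, 7.77 and 6.18% under low Pi and 5.69, 6.01 and 5.97% in control (exact p = 0.1).

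**Figure D4:**
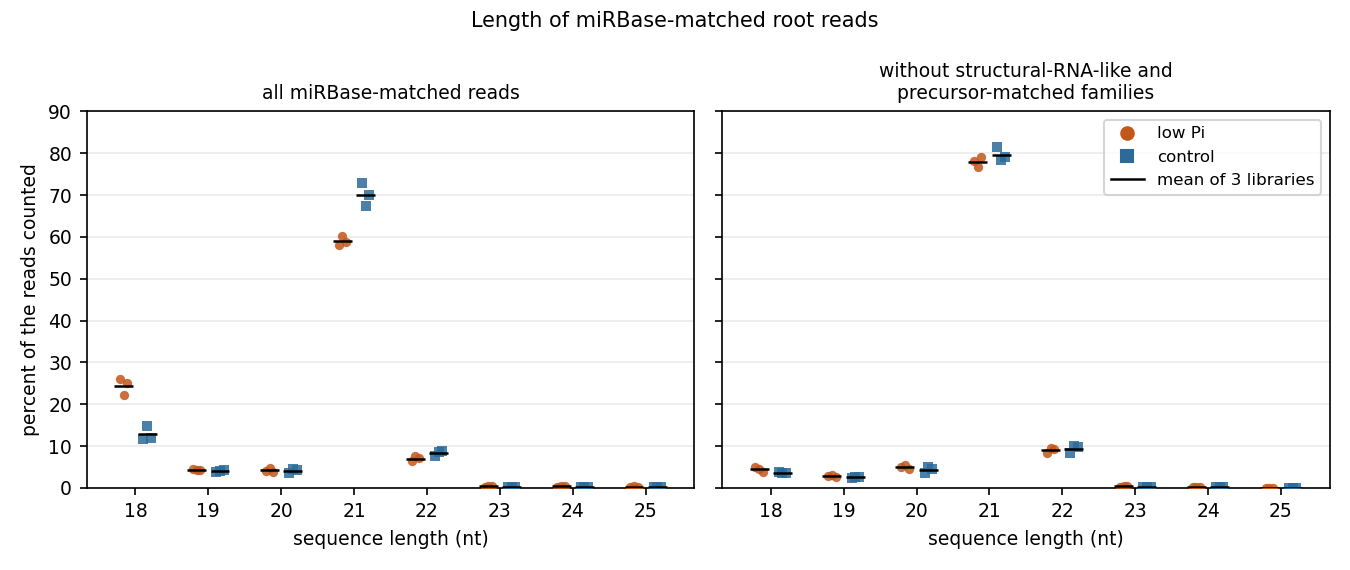
Percent of miRBase-matched root reads by sequence length in nt, for all families (left) and without the structural-RNA-like and precursor-matched families (right), with 1 point per library (circles, low Pi; squares, control; 3 each) and a line at each mean. On the left the low-Pi points are higher at 18 nt and lower at 21 nt, and on the right the points of both groups lie close together at every length.

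The low-Pi effect in root was then set against that in shoot in a fit over all 12 libraries and 81 families. The difference between organs was called for 13 families (16.0%), all with the lower value in root, and for no family in the other direction in edgeR's test, where 2 families had an unadjusted p under 0.05 in that direction and 19 in the former. The number was 7 without root R5, and 8 without root R4, S16 or S18 (shoot libraries S4, S5 and S6 were low Pi and S16, S17 and S18 control). The median over the 81 families was -0.67. With TMM factors, taken here from the family counts of all 12 libraries and not from root sequences, 1 family was called lower in root and 3 higher. In shoot, miR399 was at 284, 379 and 394 RPM under low Pi and 19.6, 25.6 and 12.7 RPM in control. The difference from root was -2.38 ± 0.44 (SE), adjusted p = 8.18e-04, as root minus shoot, and -1.39 with TMM factors, adjusted p = 0.0823. miR827 in shoot was at 465, 386 and 484 RPM under low Pi and 47.0, 47.1 and 40.2 RPM in control (root minus shoot -1.63 ± 0.36 (SE), adjusted p = 0.00385, and -0.63 with TMM factors, adjusted p = 0.328). miR5051 passed on both scales. In shoot it was at 492, 329 and 501 RPM under low Pi and 264, 231 and 118 RPM in control, with all low-Pi libraries above control, while it fell in root (root minus shoot -2.90 ± 0.43 (SE), adjusted p = 6.76e-05, and -1.92 with TMM factors, adjusted p = 0.00669). miR319 in shoot was at 1028, 839 and 838 RPM under low Pi and 1405, 1085 and 757 RPM in control with overlapping groups (root minus shoot -1.41 ± 0.34 (SE), adjusted p = 0.00823, and -0.43 with TMM factors, adjusted p = 0.470). Higher in root with TMM factors were miR1511 (2.16 with TMM factors, adjusted p = 0.00340), miR5083 (2.02 with TMM factors, adjusted p = 0.00191) and miR167 (1.38 with TMM factors, adjusted p = 0.00835), none of which passed on library totals.

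**Figure D5:**
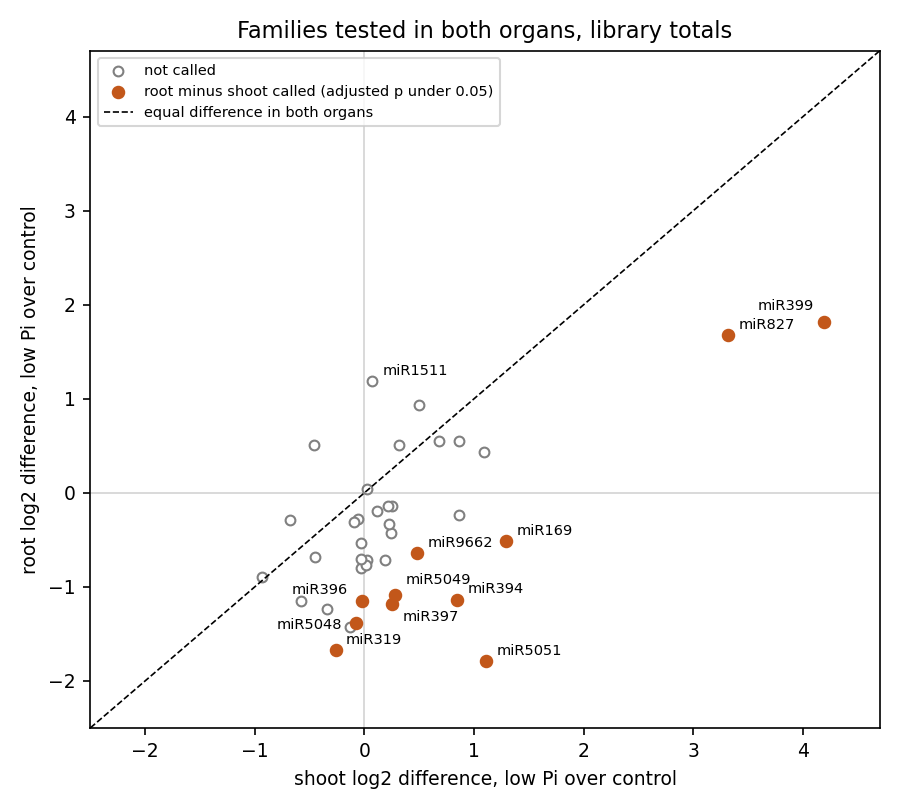
The log2 difference between low Pi and control in shoot (x axis) and root (y axis) for the 39 families tested in both organs on library totals, with filled points where root minus shoot was called and a dashed line of equal difference. The 11 called families among them lie below the line, miR399 and miR827 far to the right in shoot, and miR5051 at the lower right. These calls are on library totals, and of the filled families only miR5051 passed with TMM factors.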

How the data were processed

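Small RNA libraries were made with the TruSeq small RNA kit from 6 root and 6 shoot samples, 3 per group. The authors trimmed the reads in CLC Genomics Workbench (version not given in the sources used here), kept 18 to 25 nt, collapsed identical reads and matched them to miRBase, strand-specifically and without mismatch. The deposited counts are raw reads per distinct sequence, and the deposited RPM values are those counts per 1000000 kept reads. No genome was used. The deposited tables also hold the authors' fold changes with p-values, Bonferroni and FDR values, which were not used. A further 18 per-sample columns that repeat the counts, and the shoot sequences without a match, were not used.

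Library totals were recovered as count divided by RPM. Sequences were summed by family number. Counts were tested in edgeR 4.0.16 (R 4.3.3) by the quasi-likelihood test on library totals with no further factor, after filterByExpr with a minimum count of 10, with Benjamini-Hochberg adjustment at 0.05. A sequence was tested against its family with edgeR's diffSpliceDGE, and the organ difference as an interaction over 12 libraries. Shares were tested by exact permutation. Tests were run first on simulated data. Alternatives were TMM factors from the tested sequences, other totals, DESeq2 1.42.0, other filters and leaving out each library. For the organ difference, TMM factors were taken from the family counts of the 12 libraries. Floors are 3 counts and cover counting error only. No pair of replicate libraries agreed within sampling noise.

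The members, lists and tests were chosen with earlier results of these data known. Named were every tested family of the lists and every other called family. Named sequences were the most abundant of each such family with at least 10 RPM, every sequence called higher, the 12 largest decreases among mature forms and length variants with at least 1 RPM, and every sequence called against its family. A few others were picked after their values were seen, as stated. Names are those of the deposited matches, and reads of near-identical families such as miR165, miR166 and miR5168 are split by name only.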

Additional observations from a re-analysis of the deposited data

Results flagged for a closer look

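The low-Pi effect differed between root and shoot, by the interaction test on library totals, in 13 families, all with the lower value in root, beside a median of -0.67 over the 81 families. Whether root and shoot libraries with the same number came from the same pots was not stated, and these values are from the fit without that number. As root minus shoot on the log2 scale, the difference was -2.90 ± 0.43 (SE), adjusted p = 6.76e-05 for miR5051, -2.38 ± 0.44 (SE), adjusted p = 8.18e-04 for miR399, -1.63 ± 0.36 (SE), adjusted p = 0.00385 for miR827, -1.41 ± 0.34 (SE), adjusted p = 0.00823 for miR319 and -1.30 ± 0.34 (SE), adjusted p = 0.0149 for miR5048. It was -1.13 ± 0.31 (SE), adjusted p = 0.0149 for miR396 and -1.98 ± 0.54 (SE), adjusted p = 0.0149 for miR394. With TMM factors these differences were -1.92, -1.39, -0.63, -0.43, -0.26, -0.13 and -1.03, and miR5051 alone of the 13 passed. The call of miR394 was lost without R5, and the other 6 calls were kept without each of the 12 libraries in turn.

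The other 6 calls were lost without one library or another. The difference was -1.13 ± 0.32 (SE), adjusted p = 0.0189 for miR9662, lost without R6, S5 or S18. It was -1.81 ± 0.54 (SE), adjusted p = 0.0265 for miR169 and -1.44 ± 0.47 (SE), adjusted p = 0.0390 for miR397, both lost without R4, R5, R17, R18, S5, S16 or S18. It was -1.36 ± 0.46 (SE), adjusted p = 0.0417 for miR5049, lost without R4, R5, R6, R16, S6, S16, S17 or S18. It was -3.22 ± 0.996 (SE), adjusted p = 0.0306 for miR6213, which had 2 root reads under low Pi and 13 in control, lost without R4, R5, R6, R16, S6, S16 or S18. It was -2.42 ± 0.79 (SE), adjusted p = 0.0390 for miR9773, which had 20 and 21 root reads, lost without R4, R5, R6, R16, R18, S6, S16 or S17. With TMM factors these 6 differences lay between -2.40 and -0.10, with adjusted p of 0.321 to 0.935.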

How the results depend on the processing

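Low-Pi and control root libraries share no replicate numbers, so their comparison has no paired fit. Root and shoot libraries do share numbers, but over 81 families their deviations from the group means correlated at -0.338 to 7.05e-04 for the same number and none correlated best with its own. With 3 libraries per group these correlations cannot show whether pots were shared. The main fit left the number out, and so took the libraries as independent even if pots were shared. A replicate block on it, added after seeing the data, gave 0 families above and 10 below for the organ difference, without miR5049, miR6213 and miR9662, and 5 above and 2 below (miR5051 and miR399) with TMM factors as well. The library scale changed most. Families called higher and lower numbered 4 and 16 on library totals, 13 and 3 with TMM factors, 11 and 4 on the sum of the miRBase table, 10 and 5 on totals less the deposited unmatched reads, 18 and 2 with no scaling, and 6 and 6 with DESeq2. TMM factors taken from families, chosen after seeing the data, gave 4 lower. With no scaling, which leaves the greater depth of the low-Pi libraries in, miR156 (0.67), miR165 (0.17), miR171 (0.17), miR444 (0.77), miR5168 (0.15) and the main miR9662 sequence (0.16) turned positive. Among families and sequences that were not called, 53 and 30 values changed sign in some setting. Sequences higher and lower numbered 15 and 88 on library totals, 27 and 19 with TMM factors, 25 and 15 on the miRBase sum, 35 and 5 with no scaling, and 25 and 17 with DESeq2. There were 37 lower on totals less the unmatched reads and 58 with no filter. Beyond the depth that no scaling leaves in, the cause of these shifts was not tested. Leaving out 1 library gave 3 to 6 families higher and 9 to 19 lower (fewest without R18), and 10 to 17 sequences higher and 57 to 106 lower (fewest without R4). Of the 20 called families 10 stayed called without each library in turn, as did 8 of 15 sequences higher and 41 of 88 lower. Calls against the family numbered 0 to 4 higher and 3 to 13 lower. The organ difference gave 3 families above and 1 below with TMM factors, and 0 to 1 above and 7 to 13 below on leaving out a library.

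As low Pi minus control in percentage points, the share of mature sequences was 7.60, and 3.21 without miR6300, 5.59 without the structural-RNA-like and precursor-matched families, and -0.77 over distinct sequences in place of reads. Length variants were at -8.77, and -5.41, -6.60 and -1.53 under those settings. Precursor pieces were at 1.17, and 2.20 without miR6300 and 2.31 over distinct sequences. The 18-nt share was 11.6, and 3.26, 0.79 and 0.65, and the 21-nt share -11.1, and -4.57, -1.68 and -0.38. Depth limited the test: 3527 of 3812 sequences were too low to test, 1838 of them with 1 read in all root libraries together.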
